A study of Mus musculus with 3 samples.

Results

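The 9 genes described here encode the ligands and receptors of the VEGF system: the ligands Vegfa, Vegfc, Vegfd and Pgf, the receptor tyrosine kinases Kdr, Flt1 and Flt4, and the co-receptors Nrp1 and Nrp2. They were chosen by symbol and are 9 of 31053 genes shared by the feature tables of 3 single-cell libraries. The libraries hold cells of Peyer's patches (PP), lymphoid organs of the mouse small intestine, sorted as endothelial cells from mice of 6 to 10 weeks, 14 to 19 days after tamoxifen. The control library comes from mice labelled WT, of strain C57BL/6. Both EC-iCOUPOE libraries come from mice labelled CDH5(PAC)CreERT2;COUP-TFIIOE/OE, in which tamoxifen turns on a COUP-TFII transgene through a Cre active in blood and lymphatic endothelial cells (EC) alike. No label says how many mice a library pools. Males and females were processed together.

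VEGF-A acts mainly through VEGFR2 (Kdr) to drive growth, survival and permeability of blood vessels, while VEGFR1 (Flt1) binds VEGF-A and PlGF (Pgf) tightly and, partly as a secreted form, limits how much VEGF-A reaches VEGFR2. VEGF-C and VEGF-D signal through VEGFR3 (Flt4) and guide lymphatic vessels. Neuropilin 1 is classically the arterial co-receptor and neuropilin 2 the venous and lymphatic one, and COUP-TFII (encoded by Nr2f2) is a transcription factor of veins and lymphatics.

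The sequences before the start sites of 4 receptor genes are shown because Nrp1 was called lower in capillary EC subsets of EC-iCOUPOE mice and Flt1 came close to it in 1 of them, while Kdr and Nrp2 did neither. They are RefSeq promoter windows of build GRCm38.p6, written 5′ to 3′ on the gene's strand, ending at the start site or, for Kdr and Nrp2, at the first base that GENCODE vM21 counts as exon. Capitals mark GGTCA and GGTCG, the core letters bound by COUP-TFII, or their reverse complements TGACC and CGACC.
Nrp1, chr8:128358823-128359072, plus strand: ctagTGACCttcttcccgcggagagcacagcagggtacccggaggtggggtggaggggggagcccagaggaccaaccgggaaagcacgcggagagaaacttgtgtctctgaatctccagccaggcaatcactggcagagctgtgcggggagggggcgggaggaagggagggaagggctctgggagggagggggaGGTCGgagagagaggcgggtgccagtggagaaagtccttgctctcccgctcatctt
Nrp2, chr1:62703067-62703284, plus strand: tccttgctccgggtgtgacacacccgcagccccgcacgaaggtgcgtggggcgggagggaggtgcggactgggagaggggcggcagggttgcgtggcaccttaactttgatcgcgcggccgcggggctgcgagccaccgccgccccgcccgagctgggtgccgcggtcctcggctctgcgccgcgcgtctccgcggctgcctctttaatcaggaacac
Flt1, chr5:147726012-147726261, minus strand: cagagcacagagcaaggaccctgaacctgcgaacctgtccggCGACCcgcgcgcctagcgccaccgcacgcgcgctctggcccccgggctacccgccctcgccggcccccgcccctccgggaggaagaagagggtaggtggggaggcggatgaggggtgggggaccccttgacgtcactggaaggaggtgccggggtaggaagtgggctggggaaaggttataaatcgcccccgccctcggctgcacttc
Kdr, chr5:75978459-75978705, minus strand: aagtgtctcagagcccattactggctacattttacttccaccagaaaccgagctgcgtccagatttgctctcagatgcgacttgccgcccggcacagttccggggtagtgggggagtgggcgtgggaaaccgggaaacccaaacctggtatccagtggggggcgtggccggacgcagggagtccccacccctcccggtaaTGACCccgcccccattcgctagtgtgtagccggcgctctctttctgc

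The Nrp1 window holds TGACC 246 bases and GGTCG 56 bases before the start, the Flt1 window CGACC at 208 bases and the Kdr window TGACC at 50 bases, and the Nrp2 window holds neither motif. Of 32851 RefSeq windows of the 250 bases before a start, 46.6% hold at least 1 of the motifs on either strand, so a match is common, and no match says only that these letters are not in the window. In GENCODE vM21 the Nrp1 gene begins upstream of the RefSeq start, so its window lies inside the annotated gene. All 9 members matched, with 11 windows, and 6 of the 9 genes had a motif in at least 1 window. This count is by gene and the 46.6% is by window, so the 2 cannot be set against each other. The match of Vegfd lies in bases that GENCODE vM21 counts as exon. In the study's table of conserved sites where an NKX motif lies beside a COUP-TFII motif, of which the copy used here covers mouse chromosomes 1, 2 and 10 to 19 only in part, a site listed for Nrp2 has the NKX letters AAATTATG at chr1:62709986-62709993, in an intron of Nrp2 in GENCODE vM21. A site listed for Vegfa has the letters AACTTGA at chr17:45965638-45965644, 51355 bases outside the gene. The strand given is minus for both, and the letters are as that table gives them, on mm10. The paper also reports in vitro work on an Nrp2 element of this kind. In gel shifts it formed complexes of COUP-TFII with NKX2-1, and both proteins cooperated to activate a reporter with copies of it. Whether the site listed here is that element was not checked. A match by letters alone is a description and does not show binding.

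On GRCm38, GENCODE vM21 places Kdr at chr5:75932827-75978458 (minus strand), Flt1 at chr5:147561604-147726011 (minus), Flt4 at chr11:49609263-49652739 (plus), Nrp1 at chr8:128358604-128503363 (plus) and Nrp2 at chr1:62703285-62818695 (plus). The ligands are at chr17:46016993-46032369 (Vegfa, minus), chr8:54077606-54187096 (Vegfc, plus), chrX:164373378-164402650 (Vegfd, plus) and chr12:85166635-85177790 (Pgf, minus).

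Totals were 17341398 UMIs (unique molecules counted) in 6080 barcodes for the control library, 17417260 in 4959 for EC-iCOUPOE replicate 1 and 3548983 in 1441 for replicate 2. After filtering, 5335, 4654 and 1234 cells were used. Levels are UMIs of a gene per 1000000 UMIs (CPM) summed over the cells of a class in a library, intervals are exact 95% Poisson intervals that cover counting error only, and a log2 ratio is that of an EC-iCOUPOE library to the control library with its exact 95% interval. With 1 control library no test between genotypes was made, so a gene is called higher or lower here only where its level in each EC-iCOUPOE library differed from control by 2-fold or more, in the same direction, and 1 library or more had 50 UMIs in the class. A call describes these libraries and not a tested difference between genotypes. Libraries and genotypes cannot be told apart: EC-iCOUPOE replicate 1 shared 0 barcodes with the others, which shared 12, and its file header names software 3.1.0 where theirs name 3.0.2. Nearly all control cells with a call were female, 4111 against 215 male cells, whereas the EC-iCOUPOE libraries had 1796 and 1143, and 607 and 210.

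Cells were clustered without the 9 genes, and clusters were named by the markers they resemble, so each name stands for an X-like population: arterial EC, capillary EC (CapEC), capillary resident precursors (CRP), post-capillary venules (PCV) and high endothelial cells (HEC). Blood endothelium had 2453, 3336 and 973 cells in the control library and the EC-iCOUPOE replicates 1 and 2, and all 10 of its markers were detected in each. Lymphatic EC had 908 and 126 cells in the EC-iCOUPOE libraries and 0 in the control library, and all 7 markers were detected in both. Fibroblasts had 2480 cells and glia 195 in the control library, with 7 or fewer in each of the others. Pericytes with smooth muscle had 56, 94 and 83 cells. The CRP marker Egfl6 had 0 UMIs in every library and Abcc9, a pericyte marker, was at 0 in 2 of 3. The genotypes can therefore be compared in blood EC, most of its subsets and pericytes, while lymphatic EC are described from EC-iCOUPOE mice and fibroblasts and glia from the control alone. The tissue label names blood endothelial cells, so the fibroblasts, glia and lymphatic EC are cells the label does not name.

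Nr2f2, which counts transgene and endogenous transcripts together, was at 14.5 CPM in control CapEC and at 2018 and 1163 CPM in those of EC-iCOUPOE replicates 1 and 2. It was at 8.33, 1636 and 1052 CPM in arterial EC and at 253, 1948 and 1631 CPM in PCV, and was called higher in each of these subsets. In pericytes it was 463, 803 and 627 CPM and was not called. EC-iCOUPOE replicate 1 had the higher Nr2f2 level of the 2 in each of these classes.

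**Figure D1:**
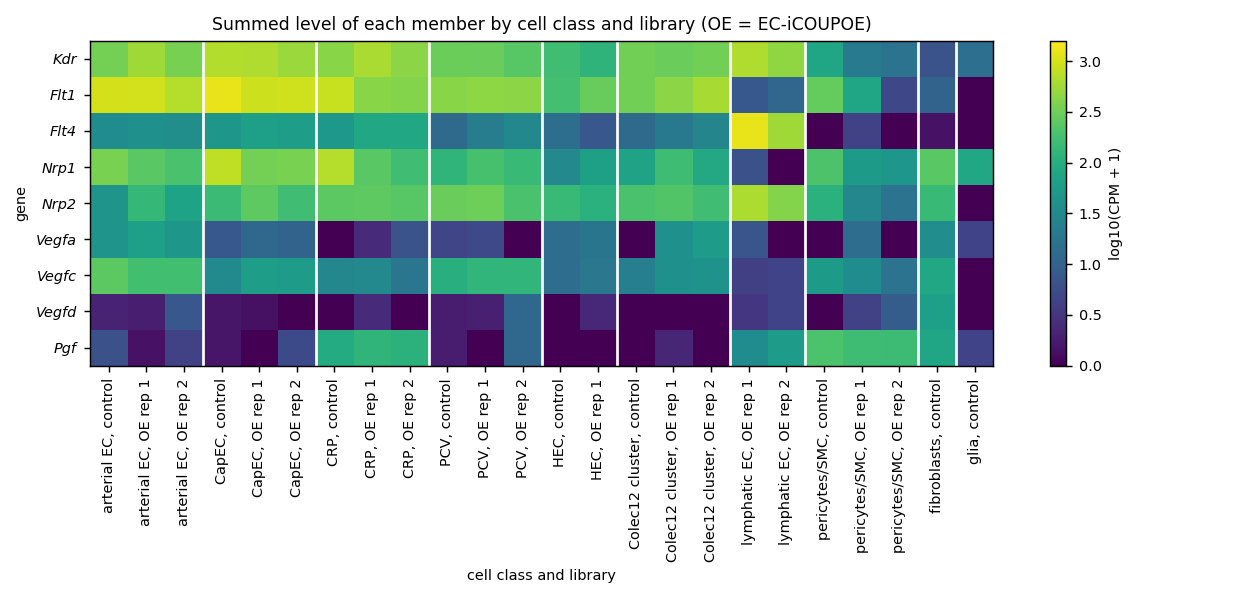
Heat map of log10(CPM + 1) for each of the 9 genes (rows) in each cell class and library with at least 20 cells (columns, OE standing for EC-iCOUPOE). Flt1 is bright throughout arterial EC and CapEC and dark in lymphatic EC, where Flt4 reaches 1257 and 558 CPM, and Vegfd is bright only in the fibroblast column, at 63.3 CPM.

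Among the receptors, Flt1 and Kdr marked all blood EC subsets, Flt4 and Nrp2 were highest in lymphatic EC, and Nrp1 was highest in CapEC and CRP of the control mice. Kdr, the main signalling receptor for VEGF-A, was at 672 CPM in control CapEC (interval 634 to 711), 426 in CRP, 337 in arterial EC, 301 in PCV and 166 in HEC, and the intervals of CRP and arterial EC and of arterial EC and PCV overlapped, while those of CapEC and HEC lay apart from all others. Lymphatic EC held Kdr at 666 and 472 CPM, within counting error of the CapEC of the same libraries at 654 and 527 CPM. Fibroblasts and glia had 5.57 and 13.9 CPM, on 40 and 4 UMIs.

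Flt1 followed another order. It was at 1229 CPM (1178 to 1281) in control CapEC, 975 in arterial EC, 848 in CRP, 421 in PCV and 174 in HEC, and the intervals of arterial EC and CRP overlapped. In lymphatic EC it was at 6.51 CPM, 15 UMIs in 908 cells, and 10.3 CPM, 3 UMIs in 126 cells. These cells otherwise held blood EC markers at 51.6% and 57.6% of the level in blood EC, and Flt1 at 1.03% and 1.35%.

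Flt4, the VEGF-C and VEGF-D receptor, was at 1257 CPM (1211 to 1303) and 558 CPM (475 to 651) in lymphatic EC of EC-iCOUPOE replicates 1 and 2. The replicates differed by more than their counting error, and no control lymphatic cell was at hand. In blood EC it was low but measurable, at 47.97 CPM in control CapEC, 50.1 in CRP, 35.4 in arterial EC, 13.3 in HEC and 11.7 in PCV, and the intervals of CapEC, CRP and arterial EC overlapped. Glia had 0 UMIs of 288558, which allows up to 10.4 CPM at 3 counts.

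Nrp1 was at 773 CPM (733 to 815) in control CapEC and 689 CPM (588 to 802) in CRP, which did not differ beyond counting error. Arterial EC followed at 361, PCV at 123 and HEC at 30.9 CPM, each apart from the next. Outside the endothelium it was at 238 CPM in fibroblasts and 79.7 CPM in glia, where it was the only member above 4 UMIs. Lymphatic EC had 12 UMIs in one EC-iCOUPOE library and 0 of 290280 in the other.

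Nrp2 had another order in blood EC. Control PCV had 296 CPM (268 to 326) and CRP 246 CPM (188 to 318), whose intervals overlapped, CapEC and HEC had 151 and 146 CPM, and arterial EC had 43.7 CPM (31.5 to 59.1), below all of them. Lymphatic EC exceeded every blood EC subset of the same libraries, at 643 and 407 CPM. Fibroblasts had 142 CPM and glia 0 UMIs.

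The first comparison asks whether COUP-TFII in capillary, arterial and precursor EC, which lack it in control mice, goes with a change in these genes. In CapEC, Nrp1 was 773 CPM in the control library (1386 UMIs) and 337 and 359 CPM in the EC-iCOUPOE libraries (892 and 423 UMIs). Both EC-iCOUPOE libraries lay below the lower bound of the control interval and close to each other. The log2 ratios were -1.20 (-1.32 to -1.08) and -1.11 (-1.27 to -0.95), a mean of -1.15 ± 0.06 (SD, n = 2) or 2.22-fold lower. Nrp1 was the 1 member called in CapEC among 6 with enough UMIs. Of all 6418 genes tested there, 6.28% were called, 3.72% higher and 2.56% lower. With 6 members tested, a count of 1 is too small to set against that background. The median log2 ratio over all genes was 0.03 and -0.13, and both ratios of Nrp1 lay far below it. After thinning every cell to 1000 UMIs, 52.0%, 28.2% and 28.6% of CapEC held an Nrp1 UMI, against 0.330% and 0% of lymphatic EC.

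The CapEC populations of the genotypes came largely from different clusters. A cluster led by Rgcc and Cd300lg held 16, 820 and 336 cells and a cluster led by Scgb3a1 and haemoglobin transcripts held 430, 44 and 15. In the 1 cluster with at least 50 cells in every library, led by Scgb3a1 and Prom1, Nrp1 was 578, 346 and 375 CPM on 352, 153 and 154 cells. It was lower in both EC-iCOUPOE libraries there too, by -0.74 (-1.05 to -0.43) and -0.62 (-0.95 to -0.31) on the log2 scale, but less than 2-fold, so the call did not hold within that cluster. In the other 4 CapEC clusters the mean log2 ratio of Nrp1 was between -1.07 and -0.65. All 5 clusters had lower values in both libraries, though several intervals included 0 where a library had few cells.

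In female cells alone Nrp1 in CapEC was 706, 328 and 332 CPM and still called. In male cells alone it was 647, 332 and 404 CPM, on 37 control cells, with a mean log2 ratio of -0.82 ± 0.20 (SD, n = 2) that did not reach 2-fold in both libraries. Markers of fibroblasts, which also express Nrp1, summed to 144 CPM in control CapEC with all 8 detected, against 0.756 and 7.63 CPM with 1 and 3 detected in the EC-iCOUPOE libraries. In fibroblasts themselves these markers summed to 34956 CPM while Nrp1 was 238 CPM, below its level in CapEC. The part of admixed fibroblast RNA in the CapEC levels was not tested.

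In CRP, the precursor-like cluster led by Gpihbp1 and Apln, Nrp1 was 689, 243 and 163 CPM on 165, 166 and 29 UMIs. The log2 ratios were -1.50 (-1.82 to -1.18) and -2.08 (-2.71 to -1.51), or 3.47-fold lower on average, and Nrp1 was the 1 member called in CRP among 6 with enough UMIs, where 8.67% of 2331 genes were called, 6.09% higher and 2.57% lower. Flt1 lay at the edge of the rule, at 848, 426 and 404 CPM, with log2 ratios of -0.99 (-1.26 to -0.73) and -1.07 (-1.48 to -0.67), so that replicate 1 missed 2-fold. The EC-iCOUPOE intervals for Flt1 did not reach the control interval. Kdr was 426, 616 and 438 CPM in the same cells, higher in replicate 1 and within counting error of control in replicate 2. The number of Flt1 UMIs per Kdr UMI in CRP was 1.99 (1.56 to 2.55) in the control library and 0.691 (0.593 to 0.805) and 0.923 (0.661 to 1.29) in the EC-iCOUPOE libraries.

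Arterial EC had Nrp1 at 361, 241 and 188 CPM, lower in both EC-iCOUPOE libraries by -0.59 (-0.78 to -0.39) and -0.94 (-1.26 to -0.63), short of 2-fold. Nrp2 was 43.7, 133 and 69.8 CPM, higher by 1.61 (1.14 to 2.11) and 0.68 (0.03 to 1.32). A cluster led by Enpp6 and Cyp1a1 held 11 control cells and 547 and 148 EC-iCOUPOE cells, and without it the mean log2 ratio of Nrp2 was 0.57, on 37 UMIs at most, while that of Nrp1 was -0.99. Kdr was 337, 558 and 347 CPM and Flt1 975, 950 and 701 CPM. None of 7 testable members was called in arterial EC, where 7% of genes were, 4.13% higher and 2.86% lower.

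In venous EC, which express Nr2f2 in control mice too, Nrp1 did not fall. PCV had 123, 186 and 142 CPM, log2 ratios of 0.60 (0.35 to 0.85) and 0.20 (-0.35 to 0.72), the second within counting error. HEC could be compared in replicate 1 only and had 30.9 and 65.7 CPM, a log2 ratio of 1.09 (0.58 to 1.59). The 6 HEC markers summed to 82494 CPM in control HEC and 25363 CPM in those of replicate 1. The part of this difference in the Nrp1 ratio was not tested. Flt1 in PCV was 421, 453 and 439 CPM, all within overlapping intervals. No member was called among the 6 tested in PCV, where 4.78% of genes were called, 3.08% higher and 1.7% lower.

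**Figure D2:**
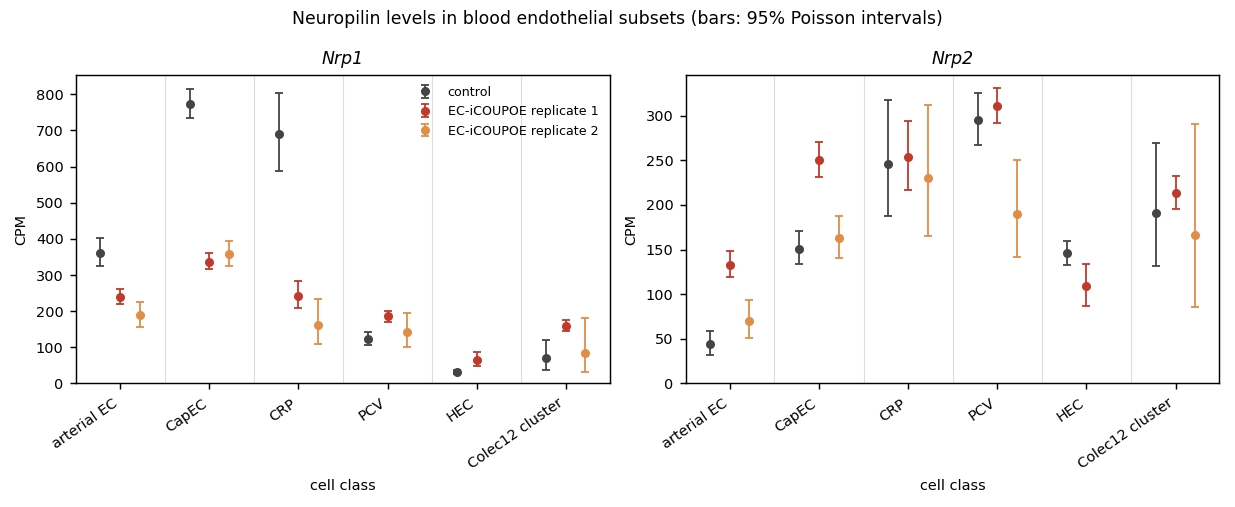
Levels of Nrp1 (left) and Nrp2 (right) in CPM in blood EC subsets, points being libraries and bars 95% Poisson intervals. In CapEC and CRP the control point for Nrp1 stands at 773 and 689 CPM, above EC-iCOUPOE points between 163 and 359 CPM, whereas in PCV, HEC and the Colec12 cluster the control point for Nrp1 is the lowest.

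The balance of the neuropilins differed between subsets. In control mice the number of Nrp2 UMIs per Nrp1 UMI was 0.121 (0.0857 to 0.167) in arterial EC, 0.196 (0.171 to 0.223) in CapEC, 0.358 (0.261 to 0.484) in CRP, 2.40 (2.00 to 2.89) in PCV and 4.73 (3.805 to 5.93) in HEC. These intervals were all disjoint from their neighbours, and the ratio rose from arterial EC to HEC. In EC-iCOUPOE mice the ratio was 0.554 and 0.371 in arterial EC, 0.743 and 0.454 in CapEC, and 1.04 and 1.41 in CRP, each above the control interval of its subset. CRP were 1 cluster, so their values above come from 1 cluster, whose make-up was not compared between libraries. Within other clusters present in all libraries the difference varied. In the CapEC cluster led by Scgb3a1 and Prom1 the ratio was 0.155 (0.117 to 0.202) in the control library and 0.333 (0.223 to 0.488) and 0.189 (0.111 to 0.306) in the EC-iCOUPOE libraries, so that replicate 2 overlapped control. In the arterial cluster led by Kcne3 it was 0.0667 (0.0382 to 0.109), 0.182 (0.0826 to 0.360) and 0.353 (0.114 to 0.938), on 10 and 6 Nrp2 UMIs in the EC-iCOUPOE libraries. The arterial cluster led by Bmp2 had 0.233, 0.453 and 0.308. The CapEC cluster led by Rgcc, with 16 control cells, had 0.6, 0.831 and 0.676. The CapEC cluster led by Car4 went the other way, at 0.192, 0.136 and 0.0741, on 3 and 4 Nrp2 UMIs in the EC-iCOUPOE libraries. In the clusters led by Bmp2, Rgcc and Car4, both EC-iCOUPOE intervals overlapped that of the control library. CapEC and arterial clusters with fewer than 20 UMIs of both genes together in a library are not listed. In PCV as a whole the ratio was 1.67 and 1.34 in the EC-iCOUPOE libraries. The first lay below the control interval and the second had an interval (0.865 to 2.10) that overlapped it. HEC of replicate 1 had 1.65 (1.16 to 2.38). The span between arterial EC and PCV, 0.121 to 2.40 in the control library, was 0.554 to 1.67 and 0.371 to 1.34 in the EC-iCOUPOE libraries. Its arterial end compares largely different clusters, since that led by Enpp6 held 11 of 457, 547 of 746 and 148 of 249 arterial EC. Both genes are counted at transcript 3′ ends, so gene length does not enter the ratio, but differences in capture between the genes do, and only its change between subsets and libraries can be read.

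**Figure D3:**
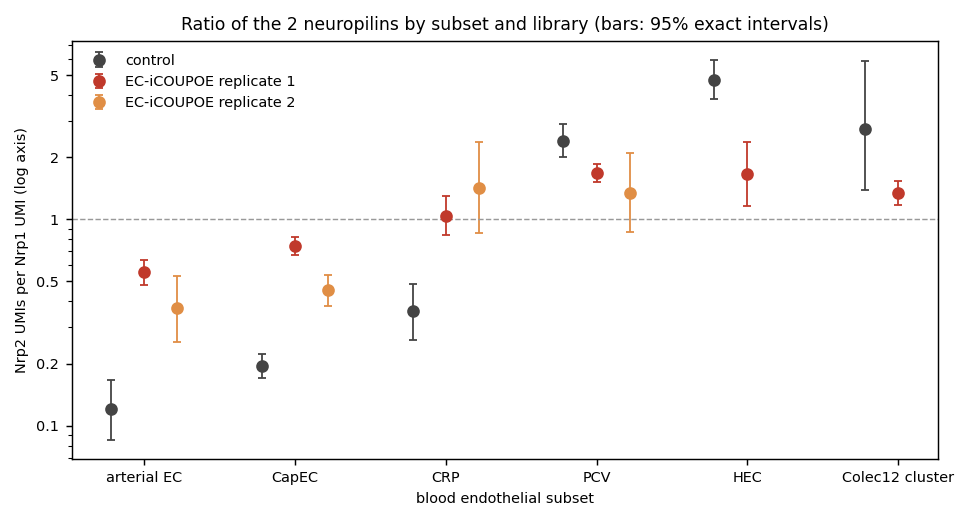
Nrp2 UMIs per Nrp1 UMI (log axis) in blood EC subsets, points being libraries with at least 20 UMIs of both genes together and bars 95% exact intervals. Control points rise from 0.121 in arterial EC to 4.73 in HEC, and EC-iCOUPOE points lie above control in arterial EC, CapEC and CRP and below it in PCV and HEC.

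Nrp1 was not resolved further by the amount of Nr2f2 in a cell. Cells of CapEC were thinned to 1000 UMIs each and divided into those with 0 and those with at least 1 Nr2f2 UMI. In replicate 1, Nrp1 was 398 CPM in 266 cells without and 321 CPM in 787 cells with Nr2f2, a log2 difference of -0.31 (-0.64 to 0.03). In replicate 2 it was 401 CPM in 212 and 331 CPM in 320 cells, -0.28 (-0.70 to 0.15). Both groups lay below the control CapEC of 773 CPM, which was summed over unthinned cells and is not a like measure. A cell with 0 thinned UMIs need not lack the transgene. Within the cluster led by Rgcc the difference was -0.46 (-0.88 to -0.02) in replicate 1 and 0.32 (-0.39 to 1.09) in replicate 2. Nrp2 was higher in cells with Nr2f2 in replicate 1, by 0.60 (0.15 to 1.07), and not in replicate 2, at -0.18 (-0.83 to 0.49). These are cells of 1 library each and not replicates.

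The remaining receptors changed little in CapEC. Kdr was 672, 654 and 527 CPM, with log2 ratios of -0.04 (-0.15 to 0.07) and -0.35 (-0.49 to -0.21). Flt1 was 1229, 909 and 936 CPM, lower by -0.43 (-0.52 to -0.35) and -0.39 (-0.50 to -0.29). Flt4 was 47.97, 63.8 and 59.4 CPM on 86, 169 and 70 UMIs. Nrp2 was 151, 250 and 163 CPM, higher in replicate 1 alone by 0.73 (0.52 to 0.94). In the shared cluster led by Scgb3a1 and Prom1, Nrp2 was 89.3, 115 and 70.7 CPM and its log2 ratios did not exceed counting error.

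**Figure D4:**
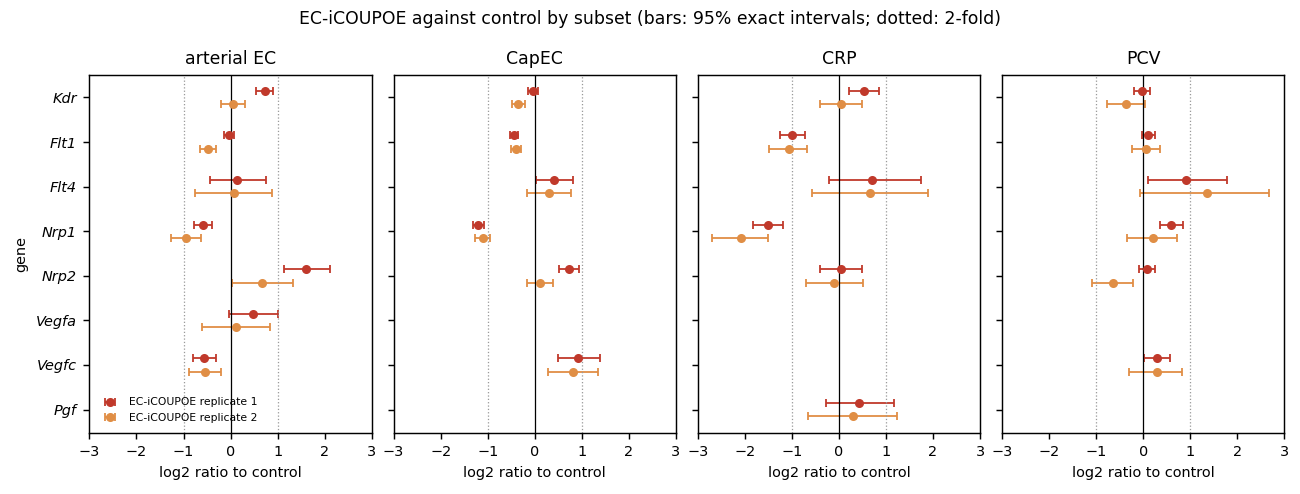
Log2 ratio of each EC-iCOUPOE library to the control library (horizontal axis) for members with at least 50 UMIs in arterial EC, CapEC, CRP and PCV, with 95% exact intervals and dotted lines at 2-fold. Nrp1 lies left of the dotted line in CapEC and CRP in both libraries, and right of 0 in PCV.

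Over all blood EC, Nrp1 was 280, 219 and 265 CPM, a mean log2 ratio of -0.22, and with the subsets weighted by their share in the control library the mean was -0.91. The weighted value rests on CapEC, CRP, arterial EC and PCV. It leaves out HEC, which had 2 cells in replicate 2, and the unnamed cells, which were 2.24%, 14.0% and 2.88% of blood EC. Among the cells left out, Nrp1 was above control in HEC and the Colec12 cluster of replicate 1. Kdr over all blood EC was 337, 431 and 429 CPM and Flt1 585, 634 and 766 CPM. Flt4 was 24.6, 36.1 and 49.96 CPM, 2-fold higher in replicate 2 alone. The 7 lymphatic markers summed to 13.4, 91.2 and 44.4 CPM in the same cells, with 6, 7 and 6 detected, and their part in the Flt4 levels was not tested. HEC supplied 3238020 of 7853851 blood EC UMIs in the control library, 791190 of 12220515 in replicate 1 and 8465 of 2341928 in replicate 2. Control HEC had Kdr at 166, Flt1 at 174 and Flt4 at 13.3 CPM. The part of the HEC share in the Kdr, Flt1 and Flt4 levels over all blood EC was not tested. The 1 member called among 8 tested over all blood EC was Pgf, where 6.84% of 10062 genes were called, 4.32% higher and 2.51% lower. Its level of 3.69, 7.69 and 12.8 CPM rested on 29, 94 and 30 UMIs, of which 75.9%, 89.4% and 66.7% were in CRP. Within CRP it was 91.9, 123 and 112 CPM with overlapping intervals, and CRP were 115 of 2453, 196 of 3336 and 69 of 973 blood EC. With the subsets weighted as in the control library the mean log2 ratio of Pgf was 0.46 and it was not called.

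By mean CPM the ligands were highest in arterial EC, fibroblasts or pericytes, and the receptors in CapEC or lymphatic EC. The places were not separate, since arterial EC also held Flt1, Nrp1 and Kdr, and fibroblasts Nrp1 and Nrp2. Vegfa, the main ligand of Kdr and Flt1, was at 44.8, 62.3 and 48.7 CPM in arterial EC, with overlapping intervals, and at 36.1 CPM (31.8 to 40.7) in fibroblasts. CapEC had 6.69, 10.96 and 9.33 CPM and PCV 3.64 and 4.06 CPM and 0 UMIs. A blood EC cluster led by Colec12 and Ltc4s, which no marker list named and which held 35, 450 and 20 cells, had 0 Vegfa UMIs of 172385 in the control library and 97 and 4 in the others, 38.9 and 55.6 CPM. The lower limits of the log2 ratios were 0.83 and 0.66, on 35 control cells. With 3 counts in place of the control's 0, Vegfa was the 1 member called there among 6 tested, in a cluster where 11.6% of genes were called, 9.88% higher and 1.73% lower, and the interval of replicate 2 (15.1 to 142) overlapped that of the control (0 to 21.4). Over all blood EC, Vegfa was 13.0, 24.4 and 19.6 CPM on 102, 298 and 46 UMIs. The arterial cluster led by Enpp6, with 11 control cells, held 0, 110 and 21 of these UMIs. The part of the cluster shares in the Vegfa level over all blood EC was not tested.

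Vegfc, a lymphatic growth factor, was highest in arterial EC of the control mice at 249 CPM (218 to 282). It was lower there in EC-iCOUPOE mice, at 169 and 170 CPM, log2 ratios of -0.56 (-0.79 to -0.32) and -0.55 (-0.89 to -0.21), mean -0.55 ± 0.01 (SD, n = 2). In CapEC it went the other way, from 32.4 CPM to 61.6 and 56.8 CPM, log2 ratios of 0.93 (0.49 to 1.39) and 0.81 (0.28 to 1.35). Neither reached 2-fold. In the arterial and CapEC clusters with at least 20 cells in every library these differences were not seen in both EC-iCOUPOE libraries. The arterial cluster led by Kcne3 had Vegfc at 277, 383 and 206 CPM, log2 ratios of 0.46 (0.11 to 0.81) and -0.43 (-1.17 to 0.24), and that led by Bmp2 had 177, 171 and 216 CPM. The CapEC cluster led by Scgb3a1 and Prom1 had 60.004 CPM in the control library and 62.4 and 45.95 CPM in the others, log2 ratios of 0.06 (-0.79 to 0.85) and -0.38 (-1.40 to 0.54). Arterial and CapEC clusters with fewer cells in a library had intervals that included 0. Their mean log2 ratio was 0.96 in the CapEC cluster led by Rgcc and 1.67 in that led by Scgb3a1 and haemoglobin transcripts. It was -0.83 in the arterial cluster led by Enpp6. It was -0.49 in the CapEC cluster led by Car4, while that led by Aqp1 had 2, 0 and 0 UMIs. PCV had 104, 127 and 127 CPM, HEC 13.0 and 17.7 CPM, and lymphatic EC 3.04 and 3.44 CPM, on 7 and 1 UMIs. Fibroblasts had 80.2 CPM. The order of arterial EC over PCV over CapEC was the same in each library, although the intervals of arterial EC and PCV overlapped in replicate 2.

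Vegfd, encoded on the X chromosome, was highest in fibroblasts. The control fibroblasts had 455 UMIs in 336 of 2480 cells, 63.3 CPM (57.7 to 69.4). Over all blood EC, of 2453, 3336 and 973 cells, there were 3, 8 and 7 UMIs, and HEC and glia of the control library had 0. Genotypes could not be compared, since the EC-iCOUPOE libraries held 7 and 4 fibroblasts.

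Pgf, the ligand of Flt1, was highest in pericytes with smooth muscle, at 196 CPM (127 to 289), 158 (117 to 209) and 155 (111 to 211) on 25, 49 and 40 UMIs, with overlapping intervals. CRP had 91.9 CPM (57.6 to 139), 123 (98.0 to 152) and 112 (68.5 to 173), and in each library this interval overlapped that of pericytes. Fibroblasts had 75.6 CPM. Lymphatic EC had 35.2 and 58.6 CPM. In CRP few cells held it: 6 of 115, 25 of 196 and 5 of 69 cells, with up to 9 UMIs in a cell, whereas in pericytes 19 of 56, 38 of 94 and 29 of 83 cells had a UMI and none had more than 3. CapEC, PCV and HEC had between 0 and 5 Pgf UMIs in any library.

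**Figure D5:**
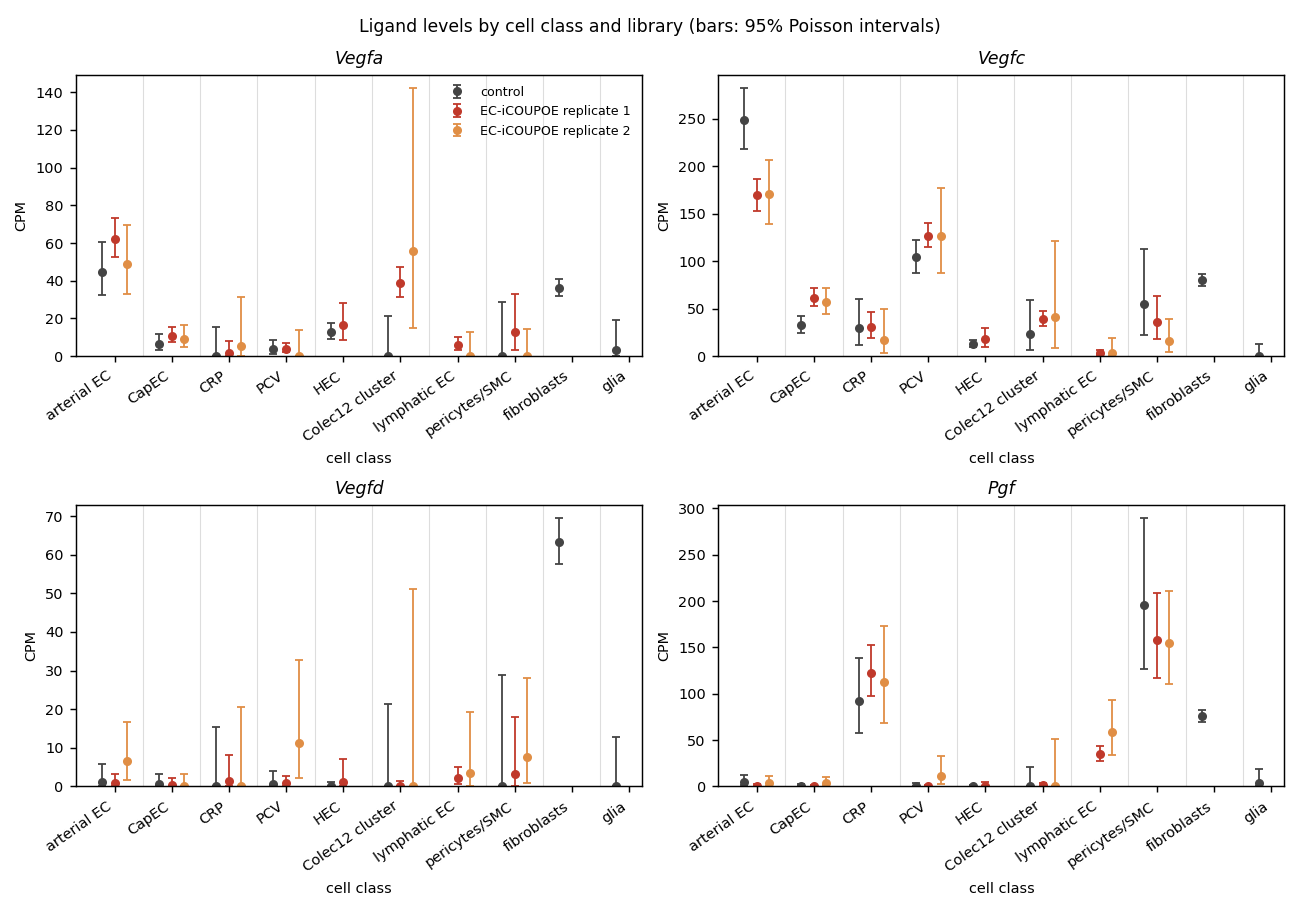
Levels of Vegfa, Vegfc, Vegfd and Pgf in CPM by cell class, points being libraries with at least 20 cells and bars 95% Poisson intervals. Vegfc is highest in arterial EC, Vegfd in fibroblasts at 63.3 CPM and Pgf in pericytes at 155 to 196 CPM, and no ligand point exceeds 3.47 CPM in glia.

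Pericytes could be compared between genotypes, but no member had 50 UMIs there. Of 1019 genes tested, 4.51% were called, 3.34% higher and 1.18% lower. Flt1 was 274, 77.4 and 3.87 CPM on 35, 24 and 1 UMIs, and Kdr was 78.4, 19.4 and 15.5 CPM on 10, 6 and 4 UMIs. Nrp1 had 26, 17 and 12 UMIs, with log2 ratios of -1.89 (-2.87 to -0.96) and -2.13 (-3.25 to -1.10). Nrp2 had 14, 9 and 4 UMIs, with log2 ratios of -1.92 (-3.31 to -0.61) and -2.83 (-4.89 to -1.15). Nrp1 in pericytes was at 72.8%, 25.0% and 17.5% of its level in blood EC. Blood EC markers in the pericytes, all 10 summed, were at 1756, 1132 and 469 CPM, which is 22.3%, 11.3% and 5.14% of their level in blood EC. The part of admixed endothelial RNA in these receptor levels was not tested.

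The 7 lists of other genes of the pathway hold 46 genes. In blood EC as a whole, 1 of 35 tested was called, where 6.84% of all genes were, the hypoxia-inducible peptide hormone Adm, at 2.55, 5.97 and 23.1 CPM on 20, 73 and 54 UMIs. In CapEC, 3 of 28 tested were called, where 6.28% of all genes were. Sema3g, a class 3 semaphorin that binds neuropilin 2, was 97.6, 16.6 and 26.3 CPM, a mean log2 ratio of -2.22 ± 0.47 (SD, n = 2). Dll4, a Notch ligand of arterial and tip EC that follows VEGF-A signalling in culture, was 147, 51.4 and 64.5 CPM, -1.35 ± 0.23. Slc2a1, the glucose transporter GLUT1, was 16.7, 48.7 and 53.4 CPM, 1.61 ± 0.09. Sema3g and Dll4 were also at least 2-fold lower in both libraries in arterial EC, at 363, 69.2 and 112 CPM and 207, 25.8 and 37.3 CPM. CapEC and arterial EC of the genotypes came largely from different clusters, and the pathway genes were not compared within clusters. The rule named genes called in blood EC or CapEC, and the arterial and CRP calls beyond those genes are named here after their values were seen: Plcg1, a phospholipase that signals from VEGFR2, was 80.2, 33.5 and 37.3 CPM in arterial EC, and the hypoxia-inducible Ankrd37 was 16.7, 89.3 and 39.3 CPM in CRP on 4, 61 and 7 UMIs.

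In CapEC the medians of the lists fell on both sides of 0. Of 7 class 3 semaphorins 2 were tested, with median log2 ratios of -1.17 and -0.58. The 8 genes known to follow VEGF-A in cultured EC, of which 7 were tested in CapEC, had a median log2 ratio of -1.09 in replicate 1 and 0.80 in replicate 2, opposite in sign, and 1 was called. The 10 genes of receptor-proximal signalling had medians of 0.16 and -0.33 over 8 tested and none was called. Of 5 plexins, the signalling partners of neuropilins, 3 were tested with medians of -0.25 and -0.05, and none was called. Of 3 receptor phosphatases 2 were tested, with medians of 0.10 and -0.51. Of 10 hypoxia-inducible genes 6 were tested, with medians of -0.12 and 0.08. The 3 other ligand and ligand-processing genes had too few UMIs in CapEC. All genes tested had medians of 0.03 and -0.13.

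Across 24 sums of a class in a library with at least 20 cells, the genes whose log2(CPM + 10) followed each member most closely by Pearson's r, out of 10047 genes, were as follows. Kdr went with Emcn, Gimap8 and Sox18 (r between 0.95 and 0.96) and Flt1 with Rapgef3, Adgrg1 and Jam2 (r of 0.94). Flt4 went with Adgrg3, Map3k1 and Stab1 (0.87 to 0.90). Nrp1 went with Plcb1, Kifc3 and Dlc1 (0.81 to 0.86) and Nrp2 with Fam43a, Ecscr and Ifi44 (0.82 to 0.83). Vegfa went with Enpp6, Crispld1 and Tmem158 (0.69 to 0.75), and Vegfc with Ankrd33b, Ier5 and Nkx2-3 (0.81 to 0.84). Vegfd went with Akr1cl, Arsi and Ccdc83 (0.90 to 0.93) and Pgf with Rasgrp2, Smarcb1 and Lpl (0.82 to 0.90). The 24 points share libraries and cell classes and the values are a description.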

How the data were processed

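The authors deposited raw UMI counts per gene and barcode for 3 droplet libraries of 3′ ends (1 control, 2 EC-iCOUPOE), made with Cell Ranger 3.0.2 on mm10 according to the submitters' processing notes. The labels name both v2 and v3 chemistry. Rows for TdTomato and CreERT2, absent from the table of EC-iCOUPOE replicate 1, held 0 UMIs in the other libraries and were not used.

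Barcodes were dropped below 500 genes or 1000 UMIs and above a mitochondrial share of 10%. Scrublet (scanpy 1.11.5) removed barcodes with a score above 0.25, which were 2.52%, 2.02% and 0.724% of the rest. Cells were integrated by reciprocal PCA (Seurat 5.3.0 in R 4.3.3, 2000 variable genes, 30 components) and clustered by Louvain at resolution 1, first all cells and then blood endothelium, without the 9 members, the pathway genes, sex-linked genes and genes the study compared between genotypes. Clusters were named by marker lists. Clusters led by another class's markers, or resting on fewer than 3 detected markers, stayed unnamed, with 1 exception. In the clustering of all cells, a cluster with no list above the rest or too few detected markers was treated differently. It was named blood endothelium where the blood endothelial list had the highest mean level. Clusters led by Hamp and by Glycam1 entered blood endothelium in this way. Cells with at least as much of another class's markers as of their own were left out as mixed. Cells were called male or female from sex-linked transcripts.

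Counts were summed per class and library in Python 3.11.15 (numpy 2.4.6, scipy 1.17.1, pandas 2.3.3). With 1 control library no test was made. A class was compared where each library had 10 cells, and a call needed a 2-fold difference in the same direction in both EC-iCOUPOE libraries and 50 UMIs in at least 1 library. Intervals are exact at 95%, and a count of 0 was given the limit of 3 counts. The calling rule and the ratio intervals were checked on simulated counts, and the summing was not. Genes named are the members, Nr2f2, pathway genes called in blood endothelium or CapEC, and the 3 genes most like each member by correlation. Alternatives were TMM scaling (edgeR 4.0.16), other UMI minimums, cluster resolutions, mitochondrial limits, doublets kept, means over cells, weighted subsets, each sex alone, each EC-iCOUPOE library left out, single clusters, and, chosen after seeing the data, a capillary and an arterial cluster left out. The members and lists were chosen with earlier results of these data known. SD over 2 libraries measures only the spread between these libraries, since nothing says that they come from separate mice.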

Additional observations from a re-analysis of the deposited data

Results flagged for a closer look

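For 4 members both EC-iCOUPOE libraries lay above control in some subsets and both below it in others, and these differences between subsets were not tested. Among these values only those of Nrp1 in CapEC and CRP were called. The mean log2 ratio of Nrp1 was -1.15 in CapEC, -1.79 in CRP and -0.76 in arterial EC, but 0.40 in PCV and 0.73 in the Colec12 cluster. That of Flt1 was -0.41, -1.03 and -0.26 in CapEC, CRP and arterial EC, but 0.0849 in PCV and 0.63 in the Colec12 cluster. Vegfc had 0.87 in CapEC, 0.28 in PCV and 0.79 in the Colec12 cluster, but -0.55 in arterial EC, while in the CapEC cluster led by Scgb3a1 and Prom1 its mean was -0.16 and in the arterial clusters led by Kcne3 and Bmp2 it was 0.02 and 0.12. Kdr had 0.29 in CRP and 0.38 in arterial EC, but -0.19 in CapEC and -0.19 in PCV. Among the subset values, those of Flt1 and Kdr in PCV and of Vegfc in the Colec12 cluster lay within counting error of control in both libraries. In replicate 1 so did Flt1 in arterial EC and Kdr in CapEC. In replicate 2 so did Nrp1 in PCV and the Colec12 cluster, Vegfc in PCV, and Kdr in CRP and arterial EC. The Colec12 cluster held 35 control cells.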

How the results depend on the processing

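Of 58 comparisons with an alternative setting, 43 kept the call or count, 9 moved a count by more than 1.5 times, 6 lost a call and 0 reversed direction. Direction was followed only for Pgf in blood endothelium and Nrp1 in CapEC. There a setting entered for the number of called members and again for the called gene, so these comparisons are not independent. A kept count need not be of the same gene. In blood endothelium the count of called members, 1 (Pgf), was 0 with TMM scaling (log2 ratios of 0.92 and 1.72 for Pgf) and 0 with the subsets weighted as in the control library, and leaving out 1 EC-iCOUPOE library gave 1 to 2, the second without replicate 1 (Flt4 and Pgf). In male cells the 1 member called was Vegfa in place of Pgf, whose ratios of 1.23 and 1.18 rested on fewer than 50 UMIs. In CapEC the count of 1 (Nrp1) was 2 at resolution 1.6 (Nrp1 and Vegfc), and 0 in male cells (mean log2 ratio -0.82), in the cluster led by Scgb3a1 and Prom1 alone (-0.68) and without the cluster led by Rgcc, an alternative chosen after seeing the data (-0.91). Over all alternatives the ratio of Nrp1 in CapEC was between -1.31 and -0.68. In the other named classes the count of 1 (Nrp1 in CRP) was 2 at resolution 0.6 (with Nrp2 higher in arterial EC) and 2 at resolution 1.6 (with Flt1 lower in CRP), and stayed 1 without the arterial cluster led by Enpp6, also chosen after seeing the data. The call of Vegfa in the unnamed Colec12 cluster was not recomputed under the alternatives. The class with the highest level was the same by CPM and by the share of cells for 8 of 9 members, Kdr being the exception. The single control library could not be left out. No paired analysis was possible because the labels give the control library no replicate number and it is alone in its group. Counting error limits Vegfd and Pgf most, with at most 8 and 94 UMIs in blood endothelium.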
